A study of Mus musculus with 4 samples.

Results

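Cytosolic ribosomal protein genes were followed through 4 single-cell RNA libraries of the mouse digit. Members were the genes whose symbol has the form Rpl or Rps followed by a number, with the usual endings, together with Rpsa and the stalk genes Rplp0, Rplp1 and Rplp2. Rows marked as pseudogenes and the Rps6k kinases were left out. The rule found 84 genes of 32285, of which 49 belong to the large subunit, 32 to the small subunit and 3 to the stalk. All but Rpl10l had at least 1 UMI, and 80 had a mean of at least 50 CPM, which are UMIs scaled to the same total in every library or class. Those below were Rpl10l, Rpl39l, Rpl3l and Rpl7l1.

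The libraries came from wild-type FVB/NJ mice, 8 weeks old per the labels. One held unamputated digit tissue at the level of the middle phalanx (P2), and the others held tissue at 12, 17 and 28 days post-amputation (dpa) at that level, which the labels call fibrosing. Per the labels, each library pooled male and female animals; digested tissue was cleared of red cells, sorted for live cells with propidium iodide and run on the 10x 3′ v3 platform. With 1 library per group, differences between libraries had no replicate check and were not tested. All 3 comparisons used the same unamputated library. Intervals are exact Clopper-Pearson 95% intervals and cover counting error only.

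Ribosomal proteins are the protein part of the ribosome, and each ribosome carries most of them once. Their mRNAs are among the most abundant in growing cells, and most begin with a run of pyrimidines, the 5′ terminal oligopyrimidine (TOP) motif, through which mTOR and Larp1 control their translation. Several members have a second gene copy with a restricted pattern, such as Rpl10l and Rpl39l in testis and Rpl3l in striated muscle.

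The deposited matrices held 8813 to 16045 barcodes and 92313847 to 197140774 UMIs per library. After filtering, 10399, 6510, 7919 and 10119 cells remained in the unamputated, 12, 17 and 28 dpa libraries, with medians of 11600, 9544, 8501 and 6657 UMIs. Library pairs shared 19 to 87 barcodes, at most 0.570% of the smaller one. The library labelled 12 dpa stood apart: it had 458 CPM of Xist and 0.228 CPM of 4 Y-linked genes together, while the other 3 had at most 0.154 CPM of Xist and 244 to 350.2 CPM of the Y-linked genes. This goes against the label of pooled sexes, and sex and time point cannot be told apart for 12 dpa. Cells were grouped into marker-defined classes, and 12 classes had at least 50 cells in every library.

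RefSeq start windows (GRCm38.p6) were found for 64 of the 84 members. The window ran from 10 bases before to 20 bases after the annotated start, on the strand of the gene. A run of at least 8 C or T bases was present in 34.4% of the member windows and in 11.2% of all 32851 windows. The windows below belong to the paralog pairs and single members on which the later results turn, and the longest run of C and T is in capitals.

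Rpl27a (chr7:109519185-109519214, plus strand): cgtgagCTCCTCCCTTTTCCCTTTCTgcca

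Rpl35 (chr2:39005112-39005141, minus strand): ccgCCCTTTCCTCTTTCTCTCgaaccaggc

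Rps2 (chr17:24720053-24720082, plus strand): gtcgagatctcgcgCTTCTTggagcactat

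Rpl10 (chrX:74270806-74270835, plus strand): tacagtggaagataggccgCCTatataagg

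Rpl13 (chr8:123102340-123102369, plus strand): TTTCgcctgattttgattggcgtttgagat

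Rps27 (chr3:90213629-90213658, minus strand): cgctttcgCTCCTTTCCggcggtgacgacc

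Rps27l (chr9:66946076-66946105, plus strand): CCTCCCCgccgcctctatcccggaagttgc

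Rpl36a (chrX:134585644-134585673, plus strand): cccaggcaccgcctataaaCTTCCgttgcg

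Rpl36al (chr12:69184048-69184077, minus strand): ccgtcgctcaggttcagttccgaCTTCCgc

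Rpl22 (chr4:152325716-152325745, plus strand): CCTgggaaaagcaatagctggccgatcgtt

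Rpl22l1 (chr3:28805498-28805527, plus strand): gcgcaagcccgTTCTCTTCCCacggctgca

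Rpl39 (chrX:37085203-37085232, minus strand): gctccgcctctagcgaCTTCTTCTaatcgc

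Rpl39l (chr16:10170218-10170247, plus strand): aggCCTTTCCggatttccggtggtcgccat

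The longest run was 20 bases in Rpl27a and 18 in Rpl35, against 6 in Rps2, 3 in Rpl10 and 4 in Rpl13. Within a pair of copies it was 10 in Rpl22l1 and 3 in Rpl22. The RefSeq start lay 1947 bases inside the GENCODE gene model for Rps2, 493 for Rpl35 and 180 for Rpl39, and at most 72 bases from its end for the other 10. For Rps2 another GENCODE transcript starts 47 bases from it. The runs of these 3 genes depend on the chosen start. In the 300-base promoter windows, searched on both strands, CCGGAAG occurred in 39.1% of members and 8.86% of all genes, and GGGCGG in 60.9% and 35.7%. AAGATGG, which can overlap the end of CCGGAAG, occurred in 14.1% and 6.34%. TATAAA was found in 9.38% of members and 13.6% of all genes.

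Ribosomal protein mRNA made up 11.6%, 14.8%, 13.1% and 14.9% of all UMIs in kept cells of the unamputated, 12, 17 and 28 dpa libraries. The share depended strongly on the cell class. Basal keratinocyte-like cells, which renew the epidermis, had 18.7%, 21.2%, 22.9% and 25.9% in that order. This class joined a cluster led by Tspear, Fras1 and Col17a1 with a cycling one led by Aspm, Cenpf and Anln, which was 34.8%, 30.2%, 48.0% and 47.9% of its cells. The share was 18.8%, 21.0%, 24.2% and 27.5% in the first and 18.5%, 21.7%, 21.9% and 24.7% in the second, so the unamputated library was lowest in both. Suprabasal keratinocyte-like cells had 18.6%, 22.3%, 22.3% and 25.3%, and these were the highest classes in 4 of 4 libraries. Neutrophil-like cells, short-lived granulocytes, were lowest of the 12 classes in 4 of 4 libraries. They had 3.23% (3.20 to 3.26), 2.62% (2.58 to 2.67), 3.56% (3.51 to 3.61) and 4.49% (4.41 to 4.56). Their cells were also shallow, with medians of 1423 to 2324 UMIs. Granulocyte precursor-like cells, too few at 12 and 28 dpa to be compared, were as low. They had 3.06% in the unamputated library and 3.59% at 17 dpa. The fold between basal keratinocyte-like and neutrophil-like cells was 5.79, 8.09, 6.43 and 5.78.

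T or NK-like cells spanned the widest range, with 12.6%, 15.7%, 20.3% and 24.0%. Dendritic-like cells, named after the antigen-presenting cells of skin, had 13.9% and then 18.5%, 18.1% and 18.7%. The name is uncertain: their cluster was led by H2-Ab1, H2-Aa and Klrb1b, with 3 dendritic markers detected. At the finer resolution a cluster of 1033 cells led by Ms4a4c, H2-Ab1 and Cd74 scored highest for macrophage markers and stayed unnamed. Fibroblast-like cells, the matrix-producing cells of the dermis, had 10.0% (10.00 to 10.03), 13.5% (13.46 to 13.54), 11.6% (11.58 to 11.61) and 11.9% (11.87 to 11.90). Vascular endothelial-like cells had 9.78%, 12.5%, 11.6% and 14.3%, and pericyte-like cells, which wrap capillaries, had 7.58%, 10.8%, 9.67% and 10.8%. When cells were split by UMI depth, shallower pericyte-like cells had 6.31%, 6.48%, 8.86% and 10.1%. Deeper ones had 8.16%, 12.4%, 10.0% and 11.2%, so the difference at 12 dpa lay mainly in the deeper cells. Smooth muscle-like cells had 7.35%, 10.2%, 9.47% and 10.5%, and Schwann-like cells, the glia of nerves, had 7.42%, 9.32%, 9.81% and 8.46%. Shallower Schwann-like cells had 5.40%, 5.50%, 6.55% and 7.41%, and deeper ones 8.28%, 10.8%, 11.2% and 8.89%. Here too the difference at 12 dpa lay mainly in the deeper cells. Over all classes, deeper cells had the higher share in 35 of 48 pairs of class and library.

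By mean over libraries the order ran from basal keratinocyte-like (22.2%) through suprabasal keratinocyte-like (22.1%), T or NK-like (18.1%), dendritic-like (17.3%), tenocyte-like (12.6%), macrophage-like (12.5%), vascular endothelial-like (12.0%), fibroblast-like (11.7%), pericyte-like (9.72%), smooth muscle-like (9.38%) and Schwann-like (8.75%) to neutrophil-like cells (3.47%). Several neighbours were not ordered the same way in every library. Basal exceeded suprabasal keratinocyte-like cells in 3 of 4 libraries, and T or NK-like exceeded dendritic-like cells in 2 of 4. Tenocyte-like exceeded macrophage-like cells, and macrophage-like exceeded vascular endothelial-like cells, in 2 of 4. Vascular endothelial-like cells exceeded fibroblast-like cells in 1 of 4 only, and smooth muscle-like exceeded Schwann-like cells in 2 of 4. Dendritic-like cells were above tenocyte-like cells, and Schwann-like above neutrophil-like cells, in 4 of 4.

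**Figure D1:**
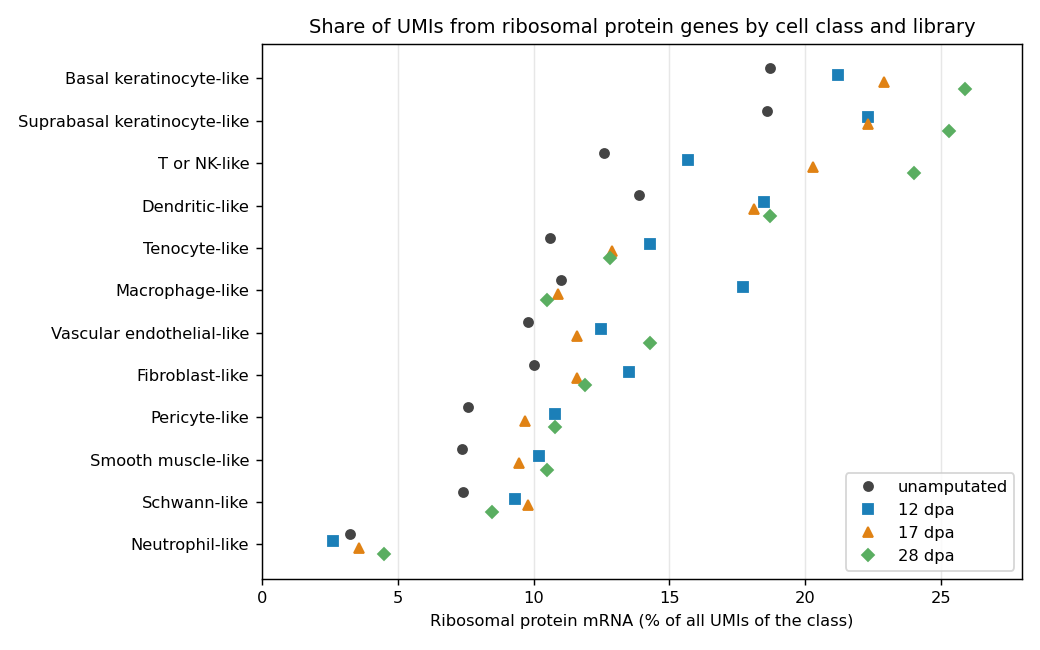
Percent of all UMIs of a class (x axis) that came from the 84 ribosomal protein genes, for 12 cell classes (y axis, ordered by mean) and 4 libraries (symbols; 1 library each, no error bars because counting intervals are narrower than the symbols). Keratinocyte-like classes lie between 18.6% and 25.9% and neutrophil-like cells between 2.62% and 4.49%.

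After amputation the share was above that of the unamputated library in 11 of 12 classes at each of 12, 17 and 28 dpa. The median folds over classes were 1.30, 1.22 and 1.38 in that order. The exceptions were neutrophil-like cells at 12 dpa, with a fold of 0.813, and macrophage-like cells at 17 and 28 dpa, with folds of 0.997 and 0.957. In neutrophil-like cells a list of nuclear RNAs and rRNA-overlapping genes held 7.85% of UMIs at 12 dpa, against 3.40% in the unamputated library. The largest folds were 1.62 in macrophage-like cells at 12 dpa, 1.61 in T or NK-like cells at 17 dpa and 1.90 in T or NK-like cells at 28 dpa. Among single clusters with at least 50 cells in both libraries compared, 19 of 20, 23 of 23 and 22 of 22 were higher.

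The exceptions depended on how the classes were cut. The macrophage-like class joined a cluster led by Ccl24, Folr2 and Lyve1 with a small cluster led by the histone and mitosis genes Hist1h3c, Tk1 and Birc5, of 34, 24, 69 and 36 cells. The histone-led cluster was 26.0%, 32.4%, 12.1% and 2.17% of the class in the unamputated, 12, 17 and 28 dpa libraries. In the first cluster the share was 7.99% in the unamputated library and then 12.6%, 10.2% and 10.4%. In the histone-led cluster it was 14.7%, 21.2%, 13.8% and 11.9%. The histone-led cluster was thus lower at 17 and 28 dpa, and it is too small to enter the counts of clusters above. Without it the macrophage-like folds were 1.27 at 17 dpa and 1.31 at 28 dpa, both above 1. A larger cluster of 1350, 918, 762 and 331 cells, led by Atp6v0d2, Ms4a7 and Acp5, also held macrophage markers but stayed unnamed and outside the class, because markers of another class outnumbered them among its leading genes. Its share was 11.4%, 15.4%, 13.3% and 12.7%. Unnamed clusters held 5594 of 34947 cells in all. Neutrophil-like cells had 2.41% in the unamputated library and 2.67% at 12 dpa when clusters were cut at a finer resolution, a fold of 1.11. That finer class also drew in a cluster led by Retnlg, Mmp8 and Ltf, with 466 unamputated cells and 2 at 12 dpa. The fold of 1.11 thus compared different cells. When single cells were classed by markers, the neutrophil-like fold was 1.36 at 12 dpa. At 17 dpa it went from 1.10 to 0.988.

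Fibroblast-like cells also joined clusters of changing size. In the cluster led by C4b, Gdf10 and Pi16 the share was 9.97%, 12.0%, 11.6% and 13.3%. In the cluster led by Wnt2, Ccn3 and Scara5 it was 10.1%, 14.2%, 11.5% and 11.2%. Both were lowest in the unamputated library. At the finer resolution, which drew in other cells, the fibroblast-like share was 9.58% in the unamputated library and 9.74% at 12 dpa, so the difference at 12 dpa depended on which cells were called fibroblast-like.

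For each gene with a mean of at least 10 CPM in a class, the log2 ratio of CPM + 1 to the unamputated library was computed. This left 81 or 82 members per class. Over the 12 classes the typical member median was 0.38, 0.33 and 0.47 at the 3 successive times, while the same median over all genes was -0.16, -0.044 and -0.12. Of 975 pairs of member and class, 828, 807 and 840 were above 0 at 12, 17 and 28 dpa, or 84.9%, 82.8% and 86.2%, against 35.6%, 41.5% and 37.9% of all gene and class pairs. A ratio past 1.5-fold higher was reached by 149 pairs at 12 dpa, which is 15.3% of them, against 5.98% of all gene and class pairs. It was reached by 113 at 17 dpa (11.6% against 5.06%) and by 294 at 28 dpa (30.2% against 8.43%). Past 1.5-fold lower were 27 pairs (2.77% against 14.8%), 33 pairs (3.38% against 8.40%) and 14 pairs (1.44% against 18.7%). With the median of the other genes set to 0 in each class, the counts higher became 395, 209 and 457 and those lower 15, 28 and 12. Other settings moved the count of 149 at 12 dpa in both directions: it was 96 with no doublets removed, 97 as a mean over cells (with 13 lower), and 283 with the stricter cell filter (with 61 lower). At 17 dpa 170 were higher with that filter and 75 with classes of single cells by markers, which gave 8 lower at 12 dpa. Higher pairs outnumbered lower ones in each of these settings.

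In fibroblast-like cells, 77, 65 and 67 of 82 members were above 0 at 12, 17 and 28 dpa, or 93.9%, 79.3% and 81.7%, against 37.9%, 44.0% and 41.2% of all genes. At the finer resolution of clusters the count at 12 dpa was 48. Past 1.5-fold higher were 17, 1 and 9, against 8.77%, 2.13% and 9.69% of all genes. Past 1.5-fold lower were 0, 3 and 0, against 18.2%, 3.71% and 17.4%.

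Macrophage-like cells had 78, 45 and 36 of 81 members above 0, or 96.3%, 55.6% and 44.4%, against 35.7%, 46.8% and 39.5% of all genes. The shares of members at 17 and 28 dpa thus lay near those of all genes. There were 53, 0 and 0 past 1.5-fold higher (10.8%, 6.63% and 8.04% of all genes) and 0, 4 and 6 past 1.5-fold lower (30.3%, 9.49% and 17.2%). Without the histone-led cluster, the counts above 0 were 76, 69 and 69. With no doublets removed they were 75, 17 and 12, so the counts at 17 and 28 dpa moved in either direction with the cells that entered the class.

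Vascular endothelial-like cells had 75, 67 and 77 of 81 members above 0, or 92.6%, 82.7% and 95.1%, against 35.8%, 39.8% and 39.2% of all genes. Past 1.5-fold higher were 4, 2 and 39 (2.62%, 2.06% and 4.80% of all genes), and past 1.5-fold lower 1, 3 and 0 (4.86%, 2.95% and 9.97%). Basal keratinocyte-like cells had 66, 67 and 75 of 81 above 0, or 81.5%, 82.7% and 92.6%, against 35.8%, 32.5% and 30.8%. Past 1.5-fold higher were 0, 3 and 29 (2.64%, 2.65% and 5.25% of all genes), and past 1.5-fold lower 1, 3 and 0 (6.47%, 8.55% and 18.3%).

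Cells of the immune system differed among themselves. T or NK-like cells had 74, 76 and 80 of 81 members above 0, or 91.4%, 93.8% and 98.8%, against 39.3%, 41.1% and 35.0% of all genes. They had 6, 54 and 68 past 1.5-fold higher (12.5%, 12.3% and 12.9% of all genes) and 0, 1 and 0 past 1.5-fold lower (27.1%, 22.4% and 36.6%). Dendritic-like cells had 75, 73 and 71 of 81 above 0, or 92.6%, 90.1% and 87.7%, against 31.4%, 36.2% and 32.3%. They had 10, 14 and 18 higher (5.62%, 3.35% and 5.71%) and 0, 3 and 0 lower (25.4%, 8.49% and 23.7%). Neutrophil-like cells had 9, 61 and 74 of 82 above 0, against 39.4%, 48.2% and 48.1% of all genes. They had 1, 1 and 31 higher (12.6%, 13.1% and 19.3%) and 20, 3 and 2 lower (25.5%, 13.8% and 22.2%). Their direction at 12 dpa depended on how cells were classed. The fold of the share was 0.813 in this class and 1.36 when single cells were classed by markers.

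Pericyte-like cells had 25, 8 and 34 of 81 members past 1.5-fold higher (4.15%, 2.70% and 7.30% of all genes) and 1, 3 and 1 lower (8.33%, 4.02% and 16.7%). Smooth muscle-like cells had 20, 11 and 34 of 81 higher (2.99%, 2.82% and 5.91%) and 1, 2 and 0 lower (8.90%, 3.45% and 13.3%). Schwann-like cells had 1, 13 and 3 of 81 higher (4.36%, 8.67% and 10.7%) and 1, 2 and 3 lower (6.77%, 12.0% and 16.4%). Tenocyte-like cells, named from tendon markers such as Scx and Tnmd, had 12, 5 and 8 of 82 higher (4.46%, 3.90% and 9.61%) and 1, 3 and 2 lower (9.38%, 4.82% and 17.0%). Their clusters were led by Crabp1, C1qtnf3 and Prss35 and by Chad, Igf2 and Cilp2, which are not on that marker list. At the finer resolution a cluster of 622 cells with Prss35, Spock3 and Crabp1 among its leading genes was named fibroblast-like. In suprabasal keratinocyte-like cells 0, 1 and 21 of 81 were higher (2.64%, 2.66% and 4.67%) and 1, 3 and 0 lower (11.2%, 9.54% and 18.0%), close to the counts of the basal cells.

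Within the large subunit, Rpl13 was past 1.5-fold higher in 7, 7 and 10 of 12 classes. It had 2184, 3655, 3255 and 3625 CPM in fibroblast-like cells of the unamputated, 12, 17 and 28 dpa libraries, and 4056, 5579, 6159.8 and 7316 CPM in basal keratinocyte-like cells. The unamputated library was lowest in both. Its log2 ratio in fibroblast-like cells was 0.74 (0.71 to 0.77), 0.58 (0.55 to 0.60) and 0.73 (0.71 to 0.75), and over the 12 classes its median was 0.67, 0.63 and 0.85. In the small subunit, Rps14, a protein of the platform near the mRNA exit, had 1533, 2158, 2409.6 and 2878 CPM in vascular endothelial-like cells, with log2 ratios of 0.49 (0.47 to 0.52), 0.65 (0.62 to 0.69) and 0.91 (0.87 to 0.94).

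Rps19, mutated in Diamond-Blackfan anaemia, was the highest macrophage-like member at 12 dpa. It had 1588, 3285, 1573 and 1347 CPM there, with the 12 dpa library alone above the unamputated one. Its log2 ratio at 12 dpa was 1.05 (0.97 to 1.13), and 1.16 without the histone-led cluster. That order depended on the cluster: in the one led by Ccl24 Rps19 had 901, 2016, 1331 and 1324 CPM, with all 3 later libraries above the unamputated one, and in the histone-led one 2445, 4161, 2473 and 1984 CPM. In basal keratinocyte-like cells Rps19 had 2374, 2871, 3561 and 3886 CPM.

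A few members went the other way. Rpl29 was below the unamputated level in 12 of 12 classes at 12 and 17 dpa and in 11 at 28 dpa, with median log2 ratios of -0.65, -0.99 and -0.56. In fibroblast-like cells it had 161, 117, 80.5 and 108 CPM, and in macrophage-like cells 170.1, 116, 69.2 and 94.0 CPM. Rpl35, which sits by the exit tunnel, was past 1.5-fold lower at 17 dpa in 12 of 12 classes, with log2 ratios from -1.33 to -0.75. It had 842, 710.1, 402 and 610.4 CPM in fibroblast-like cells and 824, 724, 392 and 653 CPM in vascular endothelial-like cells, so the 17 dpa library was lowest and 28 dpa lay between.

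Rps2, a protein of the mRNA entry site, was below the unamputated level in 11, 12 and 11 of 12 classes. It had 2164, 1495, 1319.8 and 1483 CPM in basal keratinocyte-like cells. In macrophage-like cells it had 1296, 1410.0, 568 and 471 CPM, and its log2 ratio of -1.46 (-1.53 to -1.39) at 28 dpa was the lowest of the members there. Without the histone-led cluster it was -0.73. The 12 dpa level of Rps2, above the unamputated one in the class, was below it within both clusters, with 769 and 739 CPM in the cluster led by Ccl24 and 1955 and 1873 CPM in the histone-led one. Rpl10, which joins the large subunit late in assembly, was lower in 12 and 11 of 12 classes at 12 and 17 dpa, with medians of -0.23 and -0.37, but in 7 at 28 dpa with a median of -0.044. In vascular endothelial-like cells Rpl10 had 888, 729, 654 and 952 CPM.

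Some of these genes have near-identical copies elsewhere, and reads that map to several genes could be split or dropped in counting. In the last 300 bases of the transcript, all of the 90-base windows of Rpl10, 95.3% of those of Rpl35, 55.0% of those of Rps2 and 14.7% of those of Rpl29 occur in another annotated gene. The Rps2 windows are shared with 24 other genes. Other members share as much: 80.1% of the windows of Rpl13, 93.4% of those of Rps12 and all of those of Rpl9 and Rps27. Among 28 members with at least 50% shared windows the median over classes was 0.34, 0.35 and 0.42, against 0.38, 0.35 and 0.53 in 34 with none. The levels of all 28 are uncertain in the 4 libraries, whichever way their ratios lay.

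**Figure D2:**
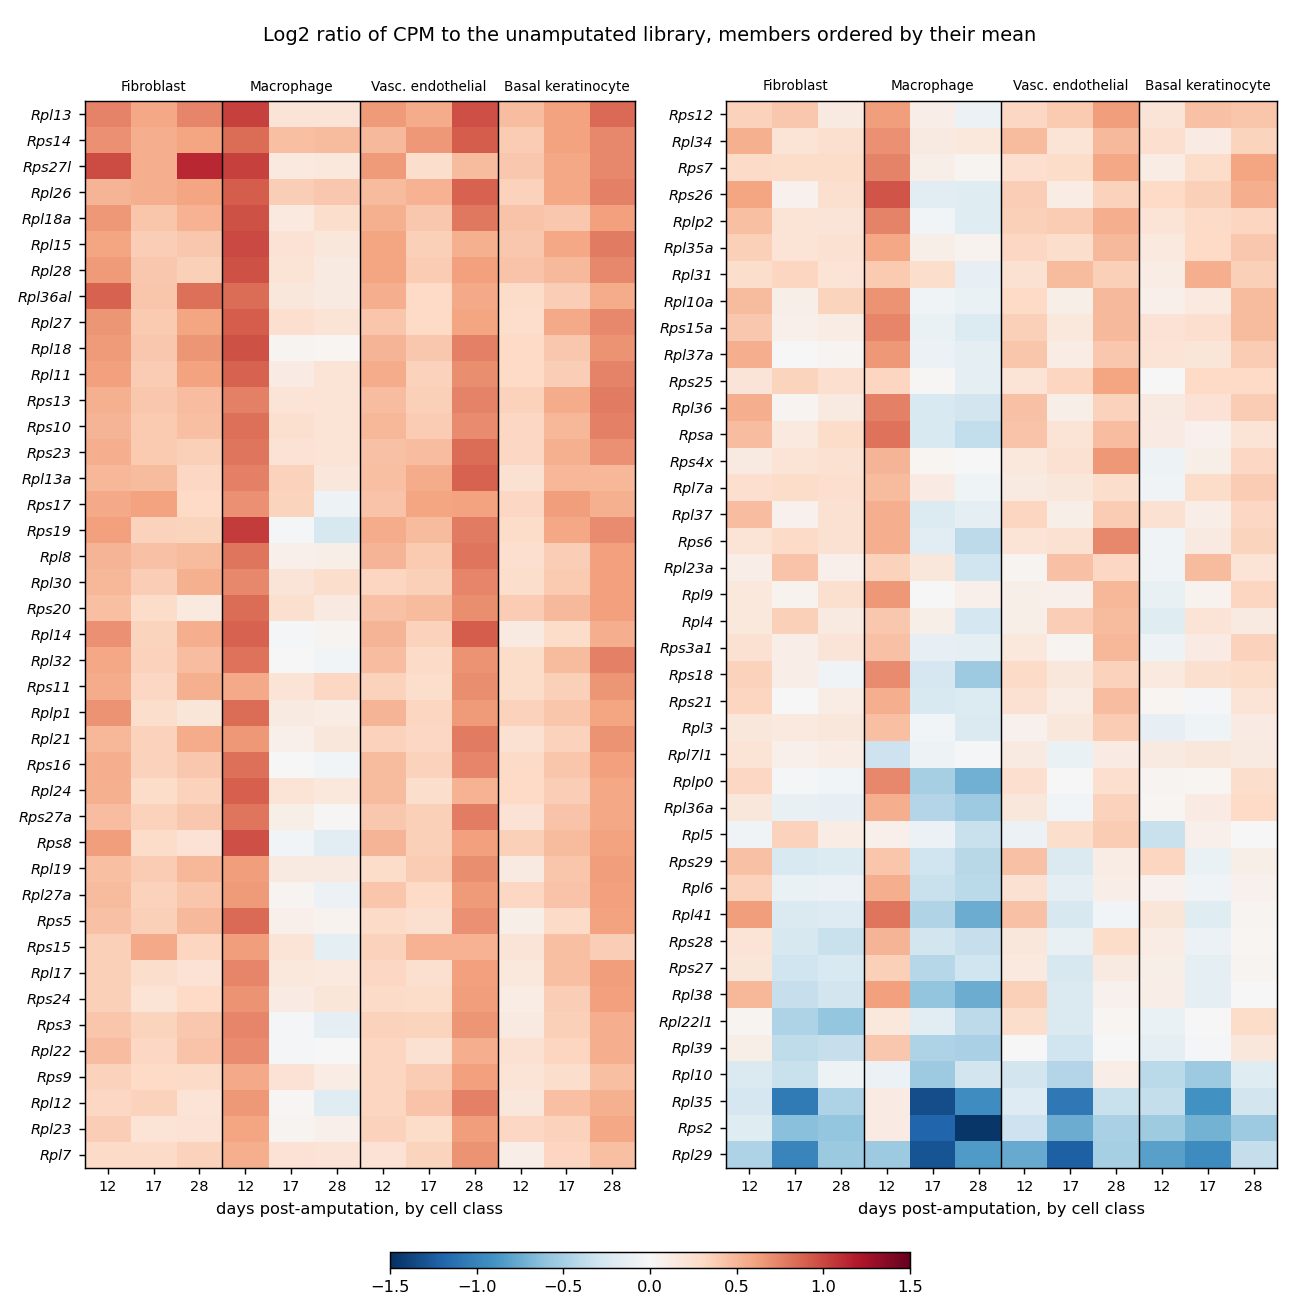
Log2 ratio of CPM to the unamputated library (colour, blue lower and red higher) for the ribosomal protein genes above 10 CPM in all of 4 classes (rows, ordered by mean) at 12, 17 and 28 dpa in fibroblast-like, macrophage-like, vascular endothelial-like and basal keratinocyte-like cells (columns, 1 library each). Rpl13 and Rps14 stand at the top and Rpl10, Rpl35, Rps2 and Rpl29 at the bottom.

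Members with very short coding sequences had lower medians than the longer ones at the later times. They were the 11 genes with under 300 coding bases, namely Rpl37, Rpl37a, Rpl38, Rpl39, Rpl39l, Rpl41, Rps21, Rps27, Rps27l, Rps28 and Rps29. They were not uniform: over classes, 4 of 11 had a median above 0 at 17 dpa and 8 of 11 at 28 dpa, where the range was -0.059 to 0.79, the highest being Rpl39l, measured in 2 classes. Rps27l, with medians of 0.66, 0.33 and 0.64, and Rpl37a, with 0.46, 0.16 and 0.34, were above 0 at all 3 times, as were Rpl37 and Rps21. Over the 12 classes their typical medians were 0.36, -0.092 and 0.11 at the 3 times, and those of the longer members were 0.38, 0.36 and 0.53. The short members were below the longer ones in 7 of 12 classes at 12 dpa and in 12 of 12 at both later times. Rpl41, which codes for one of the shortest proteins known, had 2557, 3946, 2198 and 2239.8 CPM in fibroblast-like cells, so 12 dpa alone was above the unamputated level. Rpl39, a protein that lines the exit tunnel, had 2466, 2613, 1898 and 1951 CPM there, again with 12 dpa highest.

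Other genes were related to length in a different way. Among genes that are not members, those with under 300 coding bases had typical medians of 0.34, 0.20 and 0.42, those with 300 to 599 bases 0.14, 0.12 and 0.24, and those with 600 to 1199 bases -0.092, -0.017 and -0.0088. Those with 1200 bases or more had -0.25, -0.10 and -0.29. Short genes outside the group were thus above the unamputated level too. Among those with a mean of at least 500 CPM, closer to the members in level, the medians were 0.50, 0.26 and 0.53 under 300 bases and 0.23, 0.20 and 0.42 from 300 to 599 bases. The longer members (0.53) equalled those abundant shortest genes at 28 dpa, while the short members were below other short genes at 17 and 28 dpa. The part of transcript length in the ratios of the members was not tested.

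**Figure D3:**
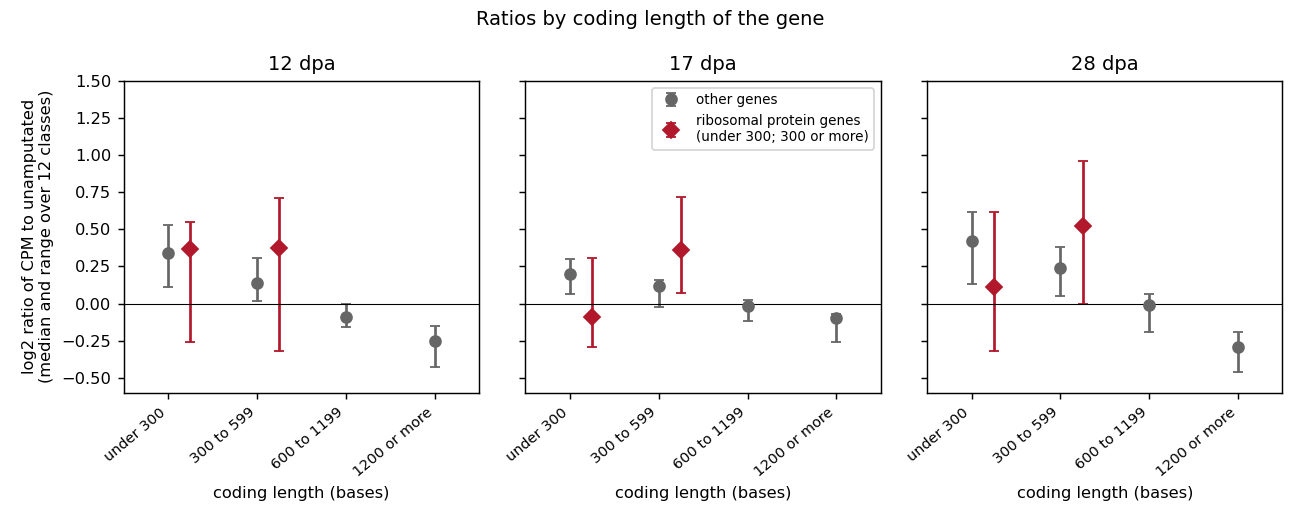
Median log2 ratio of CPM to the unamputated library (y axis) by coding length (x axis, bases) for genes outside the group (circles) and for ribosomal protein genes under 300 bases and of 300 bases or more (diamonds, the latter drawn beside the bin of 300 to 599), at 12, 17 and 28 dpa. Points are medians and bars the full range over 12 classes; short members fall to -0.092 at 17 dpa while other short genes stand at 0.20.

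Among the stalk proteins, which recruit elongation factors, Rplp1 had log2 ratios above 0 in 12, 11 and 12 of 12 classes, with medians of 0.55, 0.39 and 0.57. Rplp0, the base of the stalk, had medians of 0.24, 0.062 and 0.16, and Rplp2 0.36, 0.31 and 0.24. The stalk made up 3.85% to 5.66% of member UMIs over the 48 pairs of class and library. Rpsa, also known as a laminin receptor, had medians of 0.38, 0.22 and 0.34. Rps6, the substrate of S6 kinase, had 0.22, 0.33 and 0.43, and Rps27a, which is made as a fusion with ubiquitin, had 0.42, 0.41 and 0.59.

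The members on the X chromosome were Rpl10, Rpl36a, Rpl39 and Rps4x. At 12 dpa, the library with Xist, their medians over classes were -0.23, 0.16, 0.065 and 0.15, all under the member median of 0.38. At 28 dpa, a library without Xist, they were -0.044, 0.30, -0.059 and 0.38 against 0.47. The values of the X-linked members thus lay below the group in libraries of either kind.

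When each member was expressed as a share of all member UMIs, the composition of the pool differed more between classes than between libraries. The standard deviation of the log2 share had a median of 0.20 over classes and 0.10 over libraries in the 80 members of at least 50 CPM, and it was larger over classes for 62 of them, or 59 without neutrophil-like cells. The steadiest members over classes were Rpl27a, Rpl30, Rpl37a, Rps15 and Rpl8, with standard deviations of 0.073 to 0.094. Rpl27a stayed between 1.44% and 1.93% of the pool in all 48 pairs.

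The most variable were Rps27l (0.76), Rps9 (0.58), Rps27 (0.54), Rps29 (0.41) and Rpl22l1 (0.39). Rps9, a protein of the small-subunit body, made up 5.25%, 6.04%, 5.55% and 6.09% of the pool in neutrophil-like cells of the 4 libraries, and 1.42%, 1.44%, 1.39% and 1.40% in basal keratinocyte-like cells. Rps27, a zinc-binding protein, made up 3.99%, 4.42%, 2.90% and 3.02% in neutrophil-like cells, 1.91%, 1.66%, 1.49% and 1.60% in T or NK-like cells, and 1.04%, 0.826%, 0.778% and 0.884% in macrophage-like cells. The 3 classes did not overlap. Rps29, another zinc-binding protein, was 3.01%, 3.44%, 2.39% and 2.51% of the pool in neutrophil-like and 1.26%, 1.39%, 0.960% and 0.964% in basal keratinocyte-like cells. The ratio of small-subunit to large-subunit UMIs ran from 0.777 to 1.00, and it was highest in neutrophil-like cells, at 0.987 to 1.00.

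**Figure D4:**
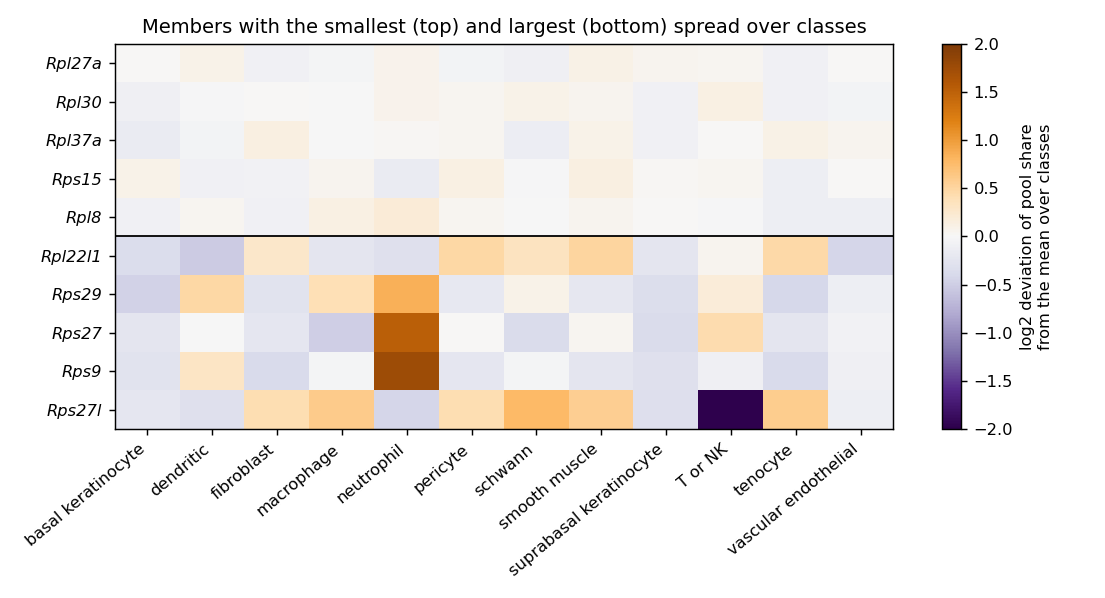
Log2 deviation of the share of all ribosomal protein UMIs from its mean over classes (colour, orange above and purple below) for the 5 members with the smallest and the 5 with the largest spread (rows), in 12 classes (columns), each the mean of 4 libraries. Rps9 stands at 1.75 and Rps27 at 1.52 in neutrophil-like cells, and Rps27l at -1.97 in T or NK-like cells.

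Rps27l, the member with the largest spread over classes, is the second copy of Rps27. Rps27l and Rps27 have coding sequences of the same length, 252 bases, and Rps27l is a known target of p53. Rps27l had 264, 520.1, 385 and 578 CPM in fibroblast-like cells and 110.1, 179, 88.7 and 124 CPM in T or NK-like cells, which did not overlap. Of the UMIs of both copies, Rps27l took 4.38%, 6.48%, 2.85% and 3.12% in T or NK-like cells, 14.3%, 17.1%, 21.3% and 21.1% in basal keratinocyte-like cells, and 16.7%, 25.9%, 26.5% and 34.1% in fibroblast-like cells. Its part was above the unamputated value in 12 of 12 classes at 12 dpa and in 11 at each later time, with T or NK-like cells as the exception. Within the fibroblast-like clusters it was 13.7%, 17.8%, 20.7% and 19.4% in the one led by C4b, and 24.2%, 29.6%, 38.0% and 41.6% in the one led by Wnt2, which grew from 149 to 1134 cells. Only 3.32% of the terminal windows of Rps27l are shared with other genes, while all of those of Rps27 are.

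Rpl36al, an intronless copy of Rpl36a on chromosome 12, took 29.9%, 41.1%, 38.0% and 45.2% of the UMIs of both copies in fibroblast-like cells and 41.8%, 47.0%, 52.3% and 53.6% in macrophage-like cells. Its part was above the unamputated value in 12, 12 and 10 of 12 classes. Rpl36a is X-linked, and its terminal windows are shared in full, while 63.0% of those of Rpl36al are. Rpl22l1 showed the opposite direction and took 45.9%, 38.9%, 33.3% and 29.7% of the UMIs of Rpl22l1 and Rpl22 in fibroblast-like cells and 47.8%, 43.7%, 36.5% and 34.2% in tenocyte-like cells. Its part was below the unamputated value in 11 of 12 classes at all 3 times, and neutrophil-like cells were the exception. Of the terminal windows 54.5% are shared for Rpl22l1 and 0% for Rpl22, so the parts of both pairs carry the same uncertainty as the levels of their shared copies. The tenocyte-like class also joined clusters of changing size, since the one led by Crabp1 held 656, 1802, 306 and 360 cells and the one led by Chad 269, 94, 413 and 202. Rpl22l1 took 48.8%, 43.9%, 37.3% and 33.6% in the first and 44.4%, 39.4%, 35.5% and 36.0% in the second, with the unamputated library highest in both. In fibroblast-like cells Rpl22l1 had 582, 599, 423 and 390.1 CPM, while Rpl22 had 686, 941, 848 and 925 CPM.

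**Figure D5:**
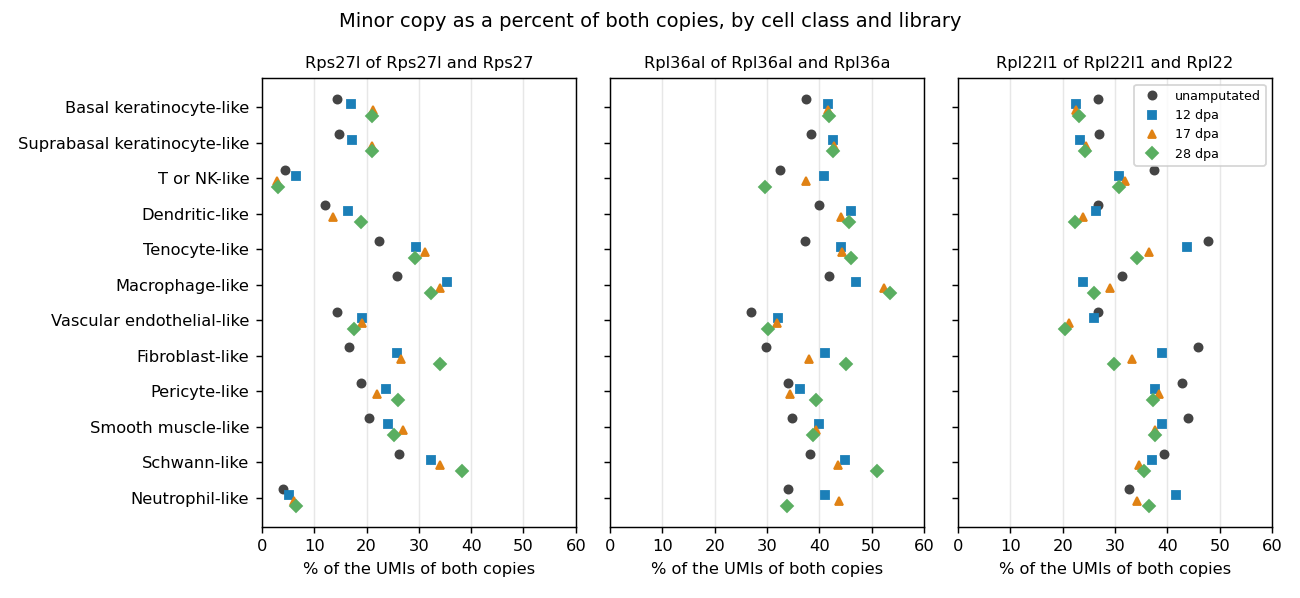
UMIs of the minor copy as a percent of the UMIs of both copies (x axis) for Rps27l, Rpl36al and Rpl22l1 (panels), in 12 cell classes (y axis) and 4 libraries (symbols, 1 library each). In fibroblast-like cells the part of Rps27l goes from 16.7% in the unamputated library to 34.1% at 28 dpa and that of Rpl22l1 from 45.9% to 29.7%.

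Rpl39l was highest in fibroblast-like and tenocyte-like cells. It had 11.4, 18.0, 8.73 and 20.7 CPM in fibroblast-like and 10.8, 15.7, 13.7 and 19.3 CPM in tenocyte-like cells, against 2466, 2613, 1898 and 1951 CPM of Rpl39 in fibroblast-like cells. Pericyte-like cells had 3.85, 6.26, 3.04 and 5.52 CPM and smooth muscle-like cells 2.19, 5.56, 1.03 and 3.49 CPM. In both keratinocyte-like classes Rpl39l had at most 0.340 CPM, and in vascular endothelial-like cells at most 0.524 CPM. Dendritic-like cells had 8.67 CPM at 17 dpa and at most 0.390 CPM in the other libraries, and Schwann-like cells had 9.03 CPM at 28 dpa and at most 0.561 CPM in the others, so a single library made up most of the value in those classes.

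Rpl3l was detected above 10 CPM in neutrophil-like cells alone among the 12 classes, with 24.9, 42.4, 39.0 and 54.9 CPM. Dendritic-like cells had 1.16 to 4.21 CPM, and the other 10 classes at most 1.11 CPM. Rpl3l lies on chromosome 17 at 24727820 to 24736143 (GRCm38, plus strand), and the gene Msrb1 lies 499 bases downstream on the same strand. Msrb1 had 1540.0, 1527, 1336 and 2089.9 CPM in neutrophil-like cells and a mean of 48.0 CPM in fibroblast-like cells. Whether the Rpl3l counts come from its own promoter or from reads near its neighbour was not tested. Rpl10l had no UMI in any class, and Rpl7l1, a ribosome assembly factor, ranged from a mean of 12.7 CPM in neutrophil-like to 59.7 CPM in basal keratinocyte-like cells.

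Other genes of the translation machinery had medians nearer 0 than the ribosomal proteins. For 22 translation factors and other TOP mRNAs the typical median over classes was 0.10, 0.15 and 0.19 at 12, 17 and 28 dpa, and 16, 9 and 44 of 263 pairs of gene and class were past 1.5-fold higher. Those are 6.08%, 3.42% and 16.7%, against 5.98%, 5.06% and 8.43% of all pairs, so the share was near the background at 12 dpa and below it at 17 dpa. Within that list, Eef1a1, the most abundant elongation factor, had 3029, 2778, 3059 and 3148 CPM in fibroblast-like cells, a narrow range. Fau, whose product is processed to a small-subunit protein, had 1464, 2247, 1880.4 and 2066 CPM there, with log2 ratios of 0.62, 0.36 and 0.50. For 28 ribosome biogenesis genes, such as the nucleolar Ncl, the median was 0.0013, 0.038 and 0.093.

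Regulators of ribosomal protein mRNA translation, a list of 21 genes around mTOR, S6 kinase and Larp1, had medians of -0.23, -0.13 and -0.25, against -0.16, -0.044 and -0.12 over all genes. Both were below 0 in 12 of 12 classes at all 3 times. Larp1, which binds TOP mRNAs, had 110.0, 71.0, 73.3 and 64.3 CPM in macrophage-like cells. Mitochondrial ribosomal proteins, which serve a separate ribosome, had medians of 0.31, 0.21 and 0.32, above 0 in 12, 12 and 11 of 12 classes. Past 1.5-fold higher were 175, 45 and 174 of 860 pairs, or 20.3%, 5.23% and 20.2%, against 15.3%, 11.6% and 30.2% of the cytosolic members and 5.98%, 5.06% and 8.43% of all genes. At 17 dpa the mitochondrial share was near the background.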

How the data were processed

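The deposited files hold UMI counts per gene and cell barcode, which the authors made with Cell Ranger 7.1.0 against mm10, per the submitters' processing notes. The cell filter required 500 genes and 1000 UMIs, and removed barcodes with over 10% mitochondrial UMIs. Doublets were marked by simulated-doublet score, at a rate of 0.8% per 1000 barcodes. Scanpy 1.11.5 gave 2000 variable genes, 30 components, 15 neighbours and Leiden clusters at resolution 1, without ribosomal protein, mitochondrial, sex-linked or listed genes. Clusters were named from marker lists. Counts were summed per class and library. Log2 ratios used CPM + 1 in genes of mean at least 10 CPM. Calculations were tested on simulated data. Genes named were the second copies, the stalk genes with Rpsa, Rps6 and Rps27a, X-linked members, the 3 highest and 3 lowest ratios in 4 classes, and the 5 steadiest and 5 most variable pool shares. The members, lists and markers were chosen with earlier results of these data known. Gene coordinates are from GENCODE M21 and sequences from RefSeq; coding lengths and shared windows came from the same annotation. Alternatives covered cell filters, doublets, clustering, thinning, scaling and averaging.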

Additional observations from a re-analysis of the deposited data

Results flagged for a closer look

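The ribosomal protein share in neutrophil-like cells at 12 dpa was 0.813 of the unamputated value, while the other 11 classes were above 1. Macrophage-like cells stood at 0.997 at 17 dpa and 0.957 at 28 dpa, again with the other 11 classes above 1. The direction of all 3 depended on how cells were classed. None of these differences between classes was tested, since each group had 1 library. A further signal lay on the 5 rows named as ribosomal protein pseudogenes, which were not counted as members. They held 0.00529% of UMIs at 12 dpa, 0.00914% at 17 dpa and 0.00886% at 28 dpa, against 0.00346% in the unamputated library.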

How the results depend on the processing

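Of 311 comparisons of counts and folds with an alternative setting, 276 stayed near the reported value, 35 moved and 0 turned direction. A count that changed majority was labelled as moved. Macrophage-like members above 0 at 28 dpa, for instance, went from 36 to 69 of 81 in 1 setting. Of 1153 values for single members or classes, 701 stayed, 445 moved and 7 turned direction. The cause was not tested for any of them. The fold of the share over all cells at 12, 17 and 28 dpa was 1.40, 1.15 and 1.29 with a stricter cell filter, 1.26, 1.12 and 1.26 with no doublets removed, and 1.26, 1.18 and 1.35 as a mean over cells. It was 1.26, 1.11 and 1.27 without mitochondrial genes, 1.29, 1.11 and 1.27 also without the nuclear list, and 1.29, 1.19 and 1.36 in cells thinned to 2000 UMIs. Pairs past 1.5-fold higher and lower at 12 dpa numbered 283 and 61 with the stricter filter, 395 and 15 with the median of other genes set to 0, and 97 and 13 as a mean over cells. At 12 dpa 96 were higher with no doublets removed, and 8 were lower with classes of single cells by markers. At 17 dpa 170 were higher with the stricter filter, 75 with classes of single cells and 209 with the median set to 0, which gave 457 at 28 dpa. At the finer clustering, 48 fibroblast-like members were above 0 at 12 dpa. With no doublets removed, 17 and 12 macrophage-like members were above 0 at 17 and 28 dpa. Leaving out the histone-led macrophage-like cluster, an alternative chosen after seeing the data, gave 69 and 69. The macrophage-like fold at 28 dpa, 0.957, became 1.31 with that, 1.05 at the finer clustering, 1.01 as a mean over cells and 1.09 in thinned cells. At 17 dpa its counting interval, 0.992 to 1.00, reached 1, and 5 settings gave 1.03 to 1.27. The neutrophil-like fold became 1.36 at 12 dpa and 0.988 at 17 dpa with classes of single cells, and 1.11 at 12 dpa at the finer clustering. The finer class held a Retnlg-led cluster that was nearly absent at 12 dpa. The stricter filter and thinning left too few neutrophil-like cells at 28 dpa for a value. No paired analysis was possible because each group held 1 library. Depth fell from a median of 11600 UMIs in unamputated cells to 6657 at 28 dpa, and members below 10 CPM could not be compared.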

Other observations

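A subset of cells had a low share of ribosomal protein mRNA. Outside neutrophil-like and granulocyte precursor-like cells, ribosomal protein genes gave under 2% of the UMIs in 6.83% (6.32 to 7.36), 13.8% (12.9 to 14.7), 8.74% (8.11 to 9.40) and 3.44% (3.09 to 3.82) of the unamputated, 12, 17 and 28 dpa cells. At 12 dpa the subset included 36.7% of Schwann-like and 32.5% of pericyte-like cells. The threshold of 2% was chosen after the values had been seen.

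These cells were shallower than the others, with median UMIs of 6463, 4995, 3620.5 and 2812 against 13030.0, 11070.0, 9463 and 6959 in the 4 libraries. Their median mitochondrial percent was 6.50, 6.93, 5.33 and 7.26 against 4.21, 3.24, 2.50 and 3.65. The list of nuclear RNAs and rRNA-overlapping genes gave 6.17%, 8.13%, 9.01% and 8.80% of their UMIs against 3.10%, 4.67%, 3.68% and 3.57%. It included Malat1 and Neat1. With these cells left out, the ribosomal protein share was 12.3%, 15.9%, 13.8% and 15.1%. The part of depth and RNA quality in the differences between libraries was not tested.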
